A study of Pseudotsuga menziesii with 72 samples.

Results

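Needles of 6 Douglas-fir trees (Pseudotsuga menziesii) were collected at 2:00 and, 4 h earlier in the same night, at 22:00, and the polyA RNA of each collection was sequenced. The 12 libraries described here, 6 at 2:00 of day 2 and 6 at 22:00 of day 1, were chosen by the hour in their titles and are part of 72 libraries that cover 12 collections over 48 h. Each tree gave 1 library at 2:00 and 1 at 22:00, so the comparison, called the night step here, was made within trees. All libraries at both times came from 3-year-old trees of 1 Oregon seed source, grown together at Corvallis and sampled in September, and the labels name no treatment. The trees were 1A and 1B, 2A and 2B, and 3A and 3B, which are pairs of sibs that share 1 parent, from 3 families. The families follow the tree names, although the family tags of families 1 and 2 in the labels carry the same number. A library holds 8 to 12 needles of 1 yearly cohort pooled within 1 tree, so it averages over needles and over the cell types of a needle. The replicate is the tree, and 1 night was sampled, so p-values describe the spread among these 6 trees on that night.

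Plants carry a circadian clock, a set of genes that repress and activate one another in turn over the day and night, and many other transcripts follow it. Some clock transcripts rise before dawn and others after dusk, and between these times needles draw on starch and sugars stored in the light. By their clock times both collections fell in darkness, and the comparison asks which transcripts differ between them. The deposited tables give transcripts by number, without gene names, sequences or positions, so no transcript below is assigned a gene or a role. Clock times rest on the titles, which count hours from a first collection placed at 2:00. A separate collection-time label differs from the title for most libraries. In bulk needles, fewer cells of a type and less RNA per cell cannot be told apart.

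Levels are given in CPM, a transcript's deposited count as a share of its library, with library sizes scaled by trimmed-mean factors. CPM is not per length, so changes are compared between times for 1 transcript. The abundance classes and the most abundant transcripts below rank transcripts by CPM, so transcript length can enter these ranks. The libraries held 16.4 to 35.1 M counts at 2:00 (median 21.1 M) and 15.4 to 35.1 M counts at 22:00 (median 22.5 M), and 3 of 6 trees had the deeper library at 2:00 (exact sign-flip permutation test of log totals, two-sided, p = 0.938). Library sizes therefore overlapped fully between the times. Of the variance in log2 CPM among the 12 libraries, 84.0% lay between trees and 5.02% between the times. Across transcripts, 2 libraries of 1 tree correlated at a Spearman rho of 0.945 to 0.976, and libraries of different trees at 0.848 to 0.920.

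Within the night, 721 transcripts were higher at 2:00 than at 22:00 and 1178 were lower, out of 50101 tested (edgeR quasi-likelihood F test with tree as a block, Benjamini-Hochberg adjusted p under 0.05). These are 1.44% and 2.35% of the transcripts tested, and 3.79% together. At an unadjusted p under 0.05 the same fit gave 8512. The changes were mostly of moderate size. Of the rises, 218 were at least 2-fold, 63 at least 4-fold and 24 at least 8-fold, and of the falls 393, 83 and 32 were. The median rise was 0.74 on the log2 scale and the median fall was 0.76, while the median change over all tested transcripts was -0.00096.

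The count rested on the pairing by tree and on which trees entered. Without tree as a block 42 transcripts passed. With tree 1B, 2A, 2B, 3A or 3B left out 1258, 1216, 1098, 1169 and 1462 passed, but without tree 1A 2013 did.

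**Figure D1:**
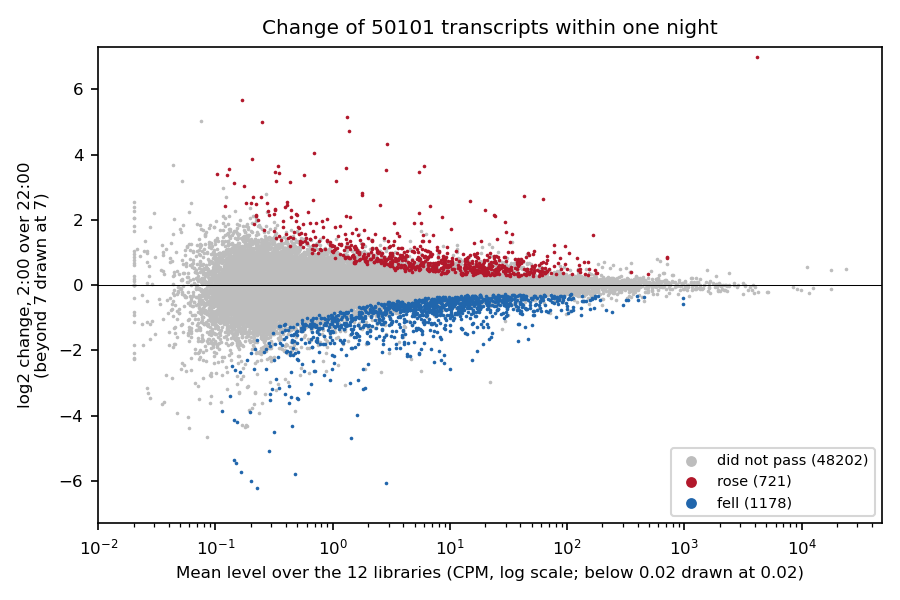
Log2 change of each of 50101 tested transcripts (2:00 over 22:00, vertical axis) against its mean level over the 12 libraries in CPM (horizontal axis, log scale), with the 721 rises in red, the 1178 falls in blue and the others in grey. Calls among weakly expressed transcripts need large changes, while abundant ones pass with small ones.

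The share called grew with abundance. In the lowest of 4 equal abundance classes, with a median of 0.253 CPM, 0.719% were called, and in the highest class, with a median of 23.6 CPM, 6.59% were. Called transcripts of the lowest class had a median absolute change of 2.43 on the log2 scale, against 0.53 in the highest class. The median standard error moved the same way, at 0.46 in the lowest class and 0.086 in the highest. Small changes of rare transcripts were therefore not detectable at this depth.

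All 6 trees shared the direction for 618 of the 721 rises (85.7%) and for 1020 of the 1178 falls (86.6%). Among all transcripts tested, 4.95% were higher at 2:00 in all 6 trees and 5.93% were lower in all 6. The 2:00 values of all trees lay above the 22:00 values of all trees for 105 rises, and below them for 105 falls. Over all tested transcripts such complete separation held for 0.283% above and 0.269% below. Per tree, the median change of the rises ran from 0.60 in tree 1B to 0.87 in tree 1A, and that of the falls from -0.60 in tree 1B to -0.80 in tree 1A. The calls were made on these same libraries, so these shares describe them and do not test them.

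The 10 largest rises were taken among called transcripts of at least 10 CPM that were higher at 2:00 in all 6 trees. Their levels did not overlap between the times. The largest was psme_t005030, which had a lowest value of 50.2, a median of 73.4 and a highest of 111 CPM at 2:00, against 8.81, 11 and 13.4 CPM at 22:00. Every tree was thus several times higher at 2:00. The mean was 75.6 ± 22.0 CPM at 2:00 and 11 ± 2.28 CPM at 22:00 (SD, n = 6 each), a log2 change of 2.75 ± 0.11 (SE, edgeR adjusted p = 5.82e-08). The course of this transcript was steep on both sides, with a mean of 4.41 CPM at 18:00 before the night and 198 CPM at 6:00 after it.

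psme_t004745 followed almost the same course. It had 69.7, 103 and 159 CPM at 2:00 (lowest, median, highest), against 13.4, 16.8 and 21.6 CPM at 22:00, a log2 change of 2.63 ± 0.09 (SE, edgeR adjusted p = 3.07e-08). psme_t083354 had 11.7, 24.3 and 45.8 CPM at 2:00, against 2.09, 3.90 and 6.90 CPM at 22:00, and changed by 2.59 ± 0.10 (SE, edgeR adjusted p = 3.19e-08). The highest 22:00 tree stayed below the lowest 2:00 tree in both. All 3 had already risen in the evening step, 22:00 over 18:00, by 1.31, 1.20 and 1.19 on the log2 scale, and all 3 rose again towards 6:00, by 1.39, 1.35 and 1.53.

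psme_t001299 and psme_t000927 formed a second such pair. psme_t001299 had 27.0, 39.9 and 50.5 CPM at 2:00 (lowest, median, highest), against 6.00, 8.74 and 10.5 CPM at 22:00, and psme_t000927 had 26.5, 41.4 and 51.0 CPM at 2:00, against 7.69, 8.82 and 9.65 CPM at 22:00. The log2 changes were 2.14 ± 0.13 and 2.13 ± 0.11 (SE, edgeR adjusted p = 1.61e-06 and 5.88e-07). Another pair was psme_t039835 and psme_t025130. psme_t039835 had 30.9, 46.8 and 54.7 CPM at 2:00, against 10.8, 13.9 and 19.4 CPM at 22:00, and psme_t025130 had 32.4, 55.3 and 60.6 CPM at 2:00, against 12.8, 16.7 and 23.7 CPM at 22:00. Their log2 changes were 1.64 ± 0.12 and 1.57 ± 0.12 (SE, edgeR adjusted p = 9.09e-06 and 1.15e-05). Unlike the first pairs, these had not passed the test in the evening step, with changes of -0.06 and 0.03, and whether the evening steps of the pairs differ was not tested.

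The profiles of these pairs over all 72 libraries were nearly identical, as a description without a test. Pearson's r across the 72 log2 levels was 0.997 for psme_t005030 and psme_t004745, 0.996 for psme_t001299 and psme_t000927, and 0.993 for psme_t039835 and psme_t025130. psme_t083354 correlated at 0.982 and 0.984 with the first pair. Because no sequences are at hand, near-identical copies that shared reads cannot be told from separate genes with the same course.

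psme_t023380 and psme_t021239 had fallen before they rose. psme_t023380 had 15.6, 31.9 and 56.4 CPM at 2:00 (lowest, median, highest), against 4.2, 5.26 and 12.3 CPM at 22:00, a log2 change of 2.29 ± 0.13 (SE, edgeR adjusted p = 1.15e-06). psme_t021239 had 10.6, 15.5 and 24.3 CPM at 2:00, against 3.16, 4.89 and 5.81 CPM at 22:00, a log2 change of 1.73 ± 0.10 (SE, edgeR adjusted p = 1.15e-06). The falls came in the evening step, by 1.15 and 1.00 on the log2 scale (edgeR adjusted p = 0.000117 and 0.000125). Their lowest means of the 12 collections were at 22:00, and their highest at 10:00. psme_t003105 completes the 10, with 33.5, 47.5 and 57.0 CPM at 2:00 against 8.19, 11.7 and 18.2 CPM at 22:00 and a log2 change of 1.95 ± 0.12 (SE, edgeR adjusted p = 1.61e-06).

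**Figure D2:**
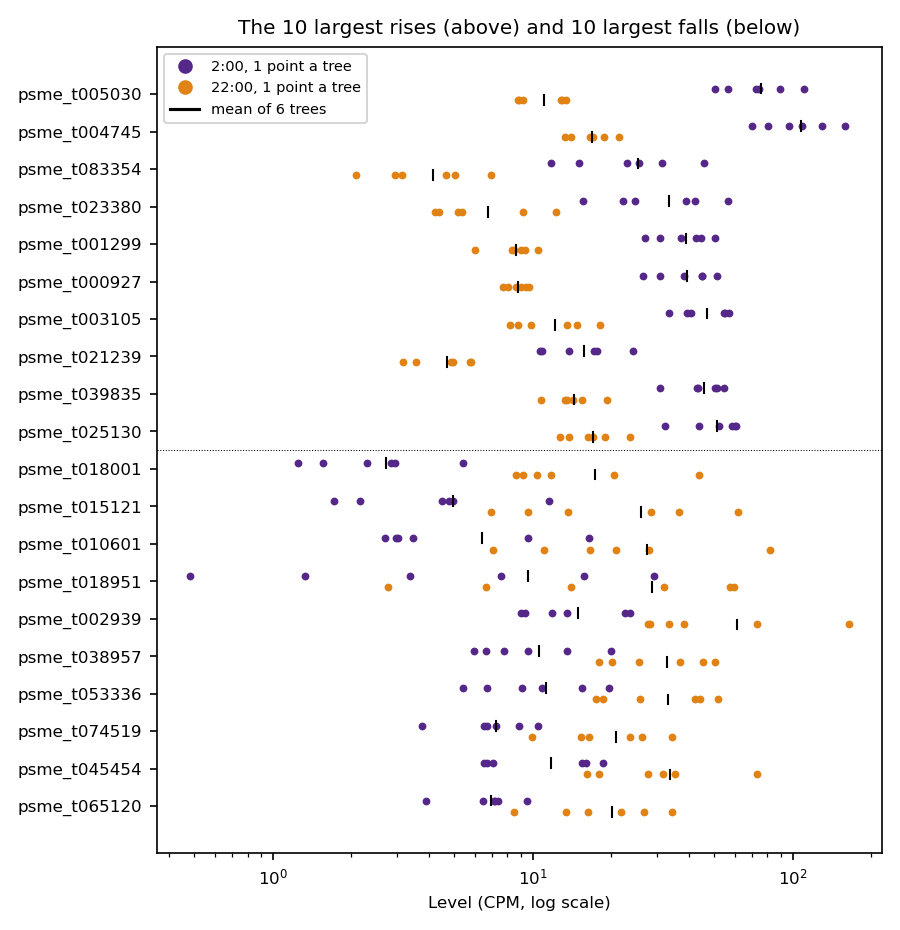
Levels in CPM (horizontal axis, log scale) of the 10 largest rises, above the dotted line, and the 10 largest falls, below it. All were chosen to change in the same direction in all 6 trees. Each transcript has 6 trees at 2:00 (purple, upper row) and the same 6 trees at 22:00 (orange, lower row), with the mean as a black bar. The 2 colours separate completely for all 10 rises and for 2 of the 10 falls, psme_t018001 and psme_t002939. Such separation held for 14.6% of all rises and 8.91% of all falls. Over all tested transcripts it held for 0.283% above and 0.269% below. These same libraries ranked the transcripts, so the counts describe them and do not test them.

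The 10 largest falls were taken by the same limits, here lower at 2:00 in all 6 trees, and spread more widely between trees. The largest was psme_t018001, with 1.25, 2.57 and 5.41 CPM at 2:00 (lowest, median, highest), against 8.62, 11.1 and 43.8 CPM at 22:00. Its values at the 2 times did not overlap. It averaged 2.72 ± 1.48 CPM at 2:00 and 17.4 ± 13.7 CPM at 22:00 (SD, n = 6 each), a log2 change of -2.57 ± 0.14 (SE, edgeR adjusted p = 9.69e-07). psme_t015121 had 1.72, 4.62 and 11.6 CPM at 2:00, against 6.91, 21.1 and 61.8 CPM at 22:00, with overlap between the times. Its log2 change was -2.30 ± 0.14 (SE, edgeR adjusted p = 1.77e-06).

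These 2 transcripts stood out at 22:00 only. psme_t018001 averaged 17.4 and 13.8 CPM at the 22:00 collections of days 1 and 2, and 2.61 to 9.52 CPM at the 10 other collections. psme_t015121 averaged 26.2 and 19.2 CPM at 22:00, and 4.08 to 14.3 CPM elsewhere. Both had risen in the evening step, by 2.32 and 2.26 on the log2 scale (edgeR adjusted p = 1.09e-06 and 1.34e-06), and neither passed the test in the late night step, 6:00 over 2:00, with changes of -0.18 and -0.21. Their profiles over the 72 libraries correlated at 0.827.

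psme_t038957 and psme_t053336 were a further like pair (r = 0.964 over the 72 libraries). psme_t038957 had 5.94, 8.68 and 20.01 CPM at 2:00 (lowest, median, highest), against 18.0, 31.4 and 50.2 CPM at 22:00, and psme_t053336 had 5.41, 9.98 and 19.7 CPM at 2:00, against 17.6, 34.0 and 51.6 CPM at 22:00. The log2 changes were -1.65 ± 0.11 and -1.58 ± 0.09 (SE, edgeR adjusted p = 3.05e-06 and 1.15e-06). In both the lowest 22:00 tree lay under the highest 2:00 tree. Both went on falling towards 6:00, by 0.57 and 0.75 on the log2 scale (edgeR adjusted p = 0.0218 and 0.00831), and were lowest at 10:00.

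The remaining 6 of the 10 fell by amounts that differed between trees. psme_t010601 had 2.70, 3.25 and 16.5 CPM at 2:00, against 7.06, 18.7 and 81.6 CPM at 22:00 (log2 change -2.01 ± 0.19). psme_t018951 had 0.481, 5.47 and 29.3 CPM at 2:00, against 2.78, 23.0 and 59.7 CPM at 22:00 (log2 change -1.80 ± 0.28). As a ratio, the trees thus spread more widely in psme_t018951 at 2:00 alone than the times did within any tree. psme_t002939 fell by 4.13 on the log2 scale in tree 1A, which had 9.33 CPM at 2:00 and 165 CPM at 22:00, but by 0.26 in tree 3B, with 23.6 CPM at 2:00 and 28.2 CPM at 22:00. Its call (edgeR adjusted p = 0.0211) was lost without tree 1B, 2A or 3A, at edgeR adjusted p = 0.0535, 0.0589 and 0.0728. psme_t074519, psme_t045454 and psme_t065120 changed by -1.49, -1.48 and -1.46.

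**Figure D3:**
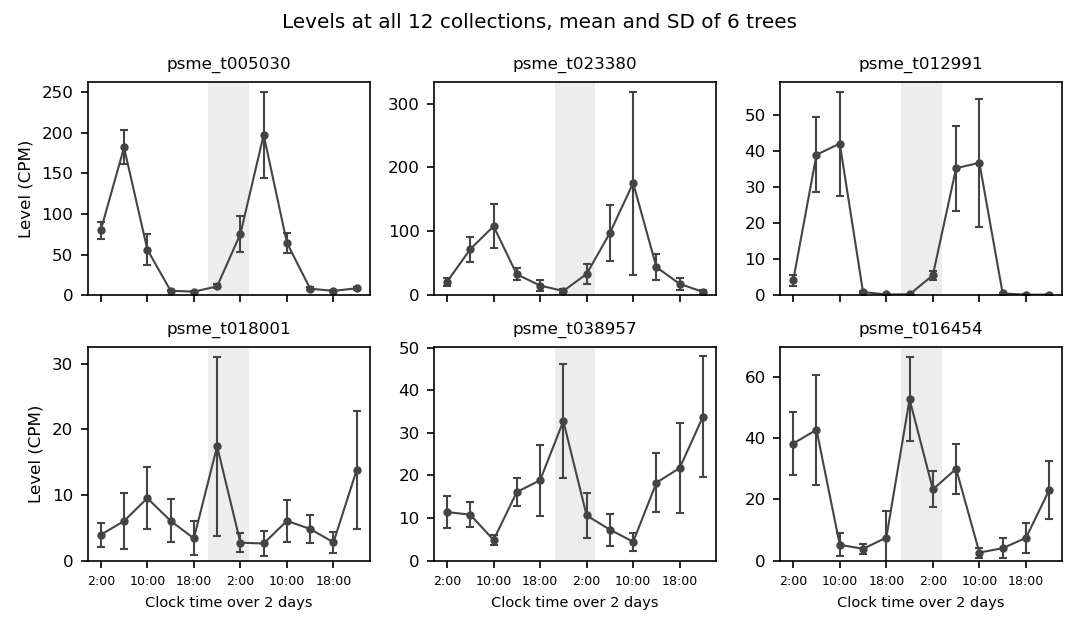
Mean level in CPM of 6 named transcripts at all 12 collections in clock order over 2 days, with bars for the SD of 6 trees and grey shading over the 22:00 and 2:00 collections compared here. psme_t005030, psme_t023380 and psme_t012991 were higher at 2:00 than at 22:00, while psme_t018001, psme_t038957 and psme_t016454 were lower.

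The most abundant rises and falls were named by level, and those above by size of change, so the sizes of the 2 sets are not compared. psme_t012347, the most abundant rise of those whose direction all trees shared, had 672, 847 and 1417 CPM at 2:00 (lowest, median, highest), against 381, 494 and 659 CPM at 22:00, and psme_t027905 had 760, 901 and 1036 CPM at 2:00, against 350, 535 and 622 CPM at 22:00. Neither overlapped between the times. The log2 changes were 0.85 ± 0.08 and 0.83 ± 0.11 (SE, edgeR adjusted p = 9.55e-05 and 0.000822). The most abundant falls were psme_t013170, with a log2 change of -0.59 ± 0.10 (SE, edgeR adjusted p = 0.00514), and psme_t021187 and psme_t010661, with -0.40 ± 0.10 and -0.36 ± 0.09 (SE, edgeR adjusted p = 0.0368 and 0.0384). The remaining abundant rise, psme_t042129, stood at the edge of the threshold, with 0.35 ± 0.09 (SE, edgeR adjusted p = 0.0497). The calls of psme_t042129 and psme_t021187 were lost when any 1 of trees 1B, 2A, 2B, 3A and 3B was left out, and that of psme_t010661 when 2A, 2B, 3A or 3B was.

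A few transcripts were close to absent at 22:00 and measurable at 2:00. psme_t012991 had 4.08, 5.46 and 7.45 CPM at 2:00 (lowest, median, highest), against 0.0627, 0.194 and 0.657 CPM at 22:00, a log2 change of 4.31 ± 0.28 (SE, edgeR adjusted p = 2.43e-06). psme_t008921 had 7.54, 10.4 and 18.4 CPM at 2:00, against 0.514, 0.670 and 2.2 CPM at 22:00, a log2 change of 3.64 ± 0.17 (SE, edgeR adjusted p = 1.92e-07). Complete separation held for both, as it did in this direction for 0.283% of all tested transcripts. Both rose again in the late night step, with means of 35.2 and 30.4 CPM at 6:00. Contrasts that hold some of these libraries named both, so the separation and the later rises are not independent of the choice. psme_t033489 had 2.03 to 3.70 CPM at 2:00, while at 22:00 it had 0 counts in trees 1A and 2B and at most 0.269 CPM in the others.

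Of 4 transcripts named for steep courses with their maximum by day, 3 fell further within the night. psme_t044566 averaged 549 CPM at 14:00, 121 CPM at 18:00, 14.5 CPM at 22:00 and 3.27 CPM at 2:00, and its log2 change within the night was -2.13 ± 0.17 (SE, edgeR adjusted p = 2.34e-05). psme_t024687 averaged 183, 40.2, 7.36 and 2.87 CPM at the same 4 collections, with a log2 change within the night of -1.32 ± 0.13 (SE, edgeR adjusted p = 0.000129). psme_t016053, which averaged 73.7 CPM at 10:00 of day 1, had 0.638 to 1.06 CPM at 2:00 against 2.40 to 3.61 CPM at 22:00, a log2 change of -1.73 ± 0.18 (SE, edgeR adjusted p = 0.000183). psme_t038959, which averaged 76.6 CPM at 14:00, did not pass, with a log2 change of -0.69 ± 0.21 (SE, edgeR adjusted p = 0.0996), though it passed without tree 1A (edgeR adjusted p = 0.00746). By contrast psme_t039271 and psme_t055959 had the largest rises in the evening step among transcripts of at least 10 CPM whose direction all trees shared. They rose by 3.84 and 3.78 on the log2 scale, and fell by 0.85 and 0.77 within the night (edgeR adjusted p = 0.00161 and 0.00139). The 22:00 libraries that chose them also enter the night step, so these falls are not independent of the choice.

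The night step was set beside its neighbours by the same fit. The evening step, 22:00 over 18:00, had 5872 calls (11.7% of the transcripts tested), 3375 higher (6.74%) and 2497 lower (4.98%), and the late night step, 6:00 over 2:00, had 790 calls (1.58%), 420 higher (0.838%) and 370 lower (0.739%). Each shares 6 libraries with the night step. Without tree 1B, 2A, 2B, 3A or 3B the evening step had 3573 to 4760 calls, but without tree 1A it had 6937. The late night step had 601, 326, 462 and 461 without tree 1B, 2A, 2B or 3A, but 937 and 812 without tree 1A or 3B. The late night step also held the 2 falls psme_t035836 and psme_t020938, of -1.91 and -1.90 on the log2 scale, which had not passed in the night step (changes of 0.85 and 0.03).

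The typical size of change per tree was also compared. Over the 11493 transcripts of at least 10 CPM, the median absolute log2 change per tree was 0.170 ± 0.027 in the night step, 0.175 ± 0.044 in the evening step and 0.178 ± 0.022 in the late night step (SD, n = 6 trees). No difference from the night step exceeded the spread between trees (exact sign-flip permutation tests, two-sided, p = 0.688 and 0.188, adjusted 0.688 and 0.375), a test chosen after the counts were seen. The smallest p that 6 trees allow is 0.0313.

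A single contrast asked where 2:00 lay off the line between 22:00 and 6:00 on the log2 scale. It called 50 transcripts (0.0998% of those tested), 31 above (0.0619%) and 19 below (0.0379%), and 22, 19 and 23 without tree 2A, 3A or 3B. A value above that line can be a bend in a steady rise and need not be a peak. psme_t008921 lay 1.11 ± 0.13 above it (SE, edgeR adjusted p = 0.000933), with means of 0.919, 11.2 and 30.4 CPM at 22:00, 2:00 and 6:00. psme_t016454 lay 0.77 ± 0.06 below it (SE, edgeR adjusted p = 1.24e-05) and was lower at 2:00 than at both neighbours. Its level was 15.2, 24.2 and 31.7 CPM at 2:00 (lowest, median, highest), against 38.9, 50.9 and 75 CPM at 22:00, and its mean then stood at 30.0 CPM at 6:00. Both sides passed the test, with log2 changes of -1.18 ± 0.07 from 22:00 and 0.36 ± 0.08 towards 6:00 (SE, edgeR adjusted p = 1.61e-06 and 0.0330). The libraries that chose psme_t016454 by this contrast also enter both sides, so these results are not independent of the choice. psme_t009072, with 7.2 to 17.0 CPM at 2:00 against 0.313 to 2.26 CPM at 22:00, lay 1.01 ± 0.14 above the line, and psme_t038485, with 9.64 to 12.3 CPM at 2:00 against 21.2 to 36.1 CPM at 22:00, lay 0.70 ± 0.08 below it (SE, edgeR adjusted p = 0.00379 and 0.000669).

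Over all 12 collections the rises and falls followed opposite courses. Relative to the mean of the 10 collections outside the night step, the rises had a median log2 level of 0.42 at 2:00 and -0.30 at 22:00, and the falls -0.25 at 2:00 and 0.50 at 22:00. Those 2 collections chose the members. At the other 10, the highest mean of a rise came at 6:00 for 58.9% and at 10:00 for 25.4%, where all tested transcripts gave 22.7% and 22.5%. For the falls the highest came at 14:00 for 30.5%, at 22:00 of day 2 for 26.9% and at 18:00 for 23.1%, where all tested transcripts gave 18.3%, 8.60% and 18.9%. The rises were thus mostly highest in the morning, and the falls were spread from afternoon to late evening.

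**Figure D4:**
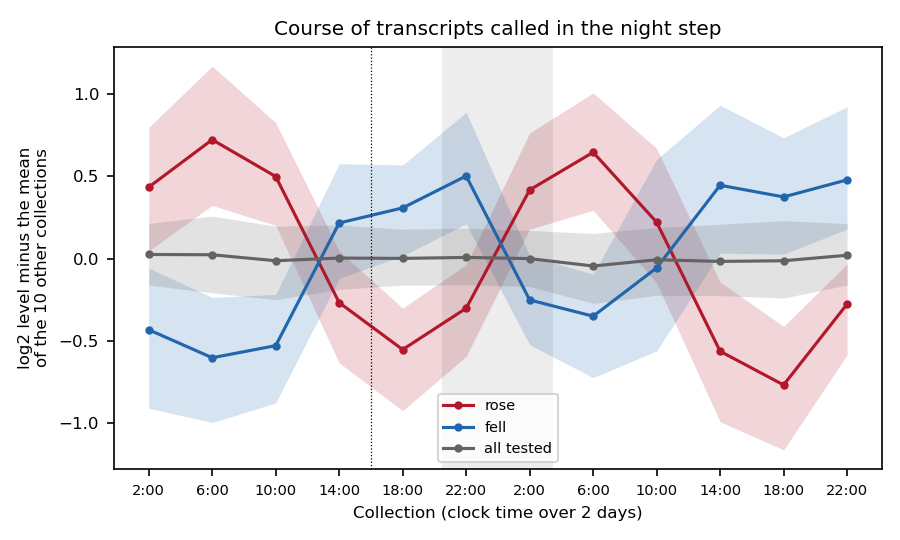
Median (line) and interquartile range (shading) of the log2 level of the 721 rises, the 1178 falls and all 50101 tested transcripts at the 12 collections in clock order, relative to each transcript's mean over the 10 collections outside the night step. Grey shading marks the 2 collections that chose the members, and the dotted line marks the shift in level between the 14:00 and 18:00 collections of day 1. The rises were highest at 6:00 on both days, and the falls were lowest at 6:00 on both days.

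The only other collections at these clock times were 2:00 of day 1 and 22:00 of day 2, which share no library with the night step. They are not of 1 night, and they lie on opposite sides of a shift in level that an earlier analysis of these data placed between the 14:00 and 18:00 collections of day 1, so their contrast holds that shift and the days between them as well. It called 5399 transcripts (10.8%), with 4.52% higher and 6.26% lower, and 2891 without tree 2B. Of the 721 rises of the night step, 645 (89.5%) were also higher at 2:00 in this pair and 363 (50.3%) passed the test in that direction, while 8 passed in the opposite one. Of the 1178 falls, 1071 (90.9%) were also lower at 2:00 and 667 (56.6%) passed in that direction, while 3 passed in the opposite one. Over all tested transcripts 51.7% were higher at 2:00 in this pair.

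**Figure D5:**
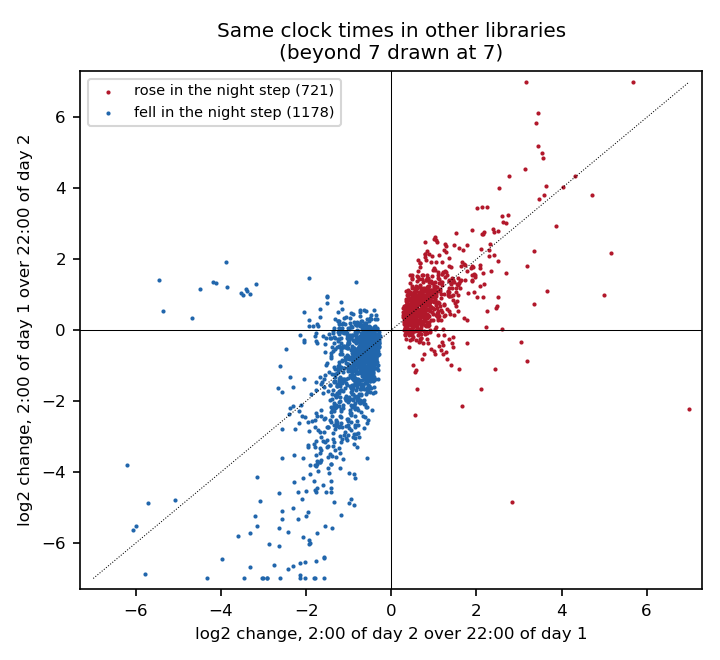
Log2 change of the 1899 called transcripts in the night step (horizontal axis) against that in the pair of other collections at 2:00 and 22:00 (vertical axis), each as 2:00 over 22:00, with rises in red, falls in blue, and equal change on the dotted line. Of the rises 645 and of the falls 1071 had the same direction in both, and changes beyond 7 are drawn at 7.

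The difference between the pairs was tested directly, as the change in the night step minus the change in the other pair, and 1443 transcripts passed (2.88%), 937 with a positive difference (1.87%) and 506 with a negative one (1.01%), or 891, 737, 658 and 944 without tree 1B, 2A, 2B or 3B. Among the members 56 of 721 rises (7.77%) and 188 of 1178 falls (16%) passed, and the difference was positive for 137 of these 188 falls. The night step is 1 of the 2 changes in this difference and chose the members, so nothing is read from these shares against that of all transcripts. The smallest p of this test belonged to psme_t005575 and psme_t000279, which did not pass in the night step (log2 changes of 0.20 and -0.17) and changed by -1.95 and -2.61 in the other pair. psme_t152973, with a large fall of 5.91 in the other pair, likewise did not pass in the night step (log2 change -0.52, edgeR adjusted p = 0.316). The abundant psme_t013170 fell by 0.59 on the log2 scale within the night and by 2.17 in the other pair, and the difference passed (edgeR adjusted p = 1.52e-05). Its mean at 2:00 was 777 CPM on day 2 and 478 CPM on day 1, and at 22:00 it was 1158 CPM on day 1 and 2162 CPM on day 2. psme_t016454 fell by 1.18 within the night, but was 0.79 higher at 2:00 in the other pair, a change that did not pass (edgeR adjusted p = 0.0586), and the difference passed (edgeR adjusted p = 0.000474). Libraries of the night step helped to choose psme_t013170 and psme_t016454, so their differences are not independent of the choice. The part of the day and of the shift in these differences was not tested.

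The collections on the far sides of the night, 6:00 over 18:00, gave a second view from libraries that the night step did not use. This contrast called 10292 transcripts (20.5%), with 9.83% higher and 10.7% lower. Of the 721 rises, 691 (95.8%) were higher at 6:00 than at 18:00 and 575 (79.8%) passed in that direction. In the opposite one 5 rises passed. Of the 1178 falls, 960 (81.5%) were lower at 6:00 and 657 (55.8%) passed, while 57 passed in the opposite direction. Over all tested transcripts 47.1% were higher at 6:00 and 52.9% were lower. Among the falls that did not pass across the night were psme_t018001 and psme_t015121, with log2 changes of -0.36 and -0.21 (edgeR adjusted p = 0.531 and 0.737). Across the 1899 called transcripts, Pearson's r of the log2 changes was 0.703 between the night step and the other pair and 0.559 between the night step and this contrast. Over all 50101 tested transcripts, which the night step did not select, r was 0.447 and 0.337. These values are a description, because transcripts are not independent.

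The night step was compared between the 3 families as the tree names give them, while the labels' tags do not separate families 1 and 2. In an edgeR quasi-likelihood test of the interaction of time with family, 0 transcripts passed (0%), 1489 had an unadjusted p under 0.05, and the smallest adjusted p was 0.964. Without tree 1B 398 passed, and without tree 2A or 2B 1 did, each with a single tree left in that family. With 2 trees in a family, this test has few degrees of freedom. psme_t041987, with the smallest p, changed by 0.48 and 0.47 in trees 1A and 1B, by -0.15 and 0.07 in trees 2A and 2B, and by -1.03 and -1.07 in trees 3A and 3B on the log2 scale. psme_t038708, the next, changed by 0.26 and -0.39 in trees 1A and 1B, by 0.28 and 0.08 in trees 2A and 2B, and by 2.08 and 1.63 in trees 3A and 3B. Its levels in family 3 were low, with 7.16 CPM at 2:00 and 1.63 CPM at 22:00 in tree 3A. Tree 3B had 0.764 CPM at 2:00 and 0.188 CPM at 22:00 (26 and 4 counts). The trees of families 1 and 2 had 61.2 to 474 CPM.

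The called transcripts made up a small part of each library. The rises, leaving out psme_t004418, summed to 1.68 to 1.96% of a library's counts at 2:00 and to 1.03 to 1.29% at 22:00, and the falls to 1.42 to 2.03% at 2:00 and to 2.16 to 3.07% at 22:00. psme_t004418 was called as a rise because of 1 library. It had 809258 counts in tree 1A at 2:00, 4.93% of that library, against 147 counts in the same tree at 22:00. In 9 of the 11 other libraries it had 0 counts. Without tree 1A its log2 change was -1.89 (edgeR adjusted p = 0.591), so its call rests on that library. Tree 1A also held 17359 CPM of it at 18:00 of day 2, while the other 70 libraries of the series stayed at or below 7.99 CPM. In all, 14 transcripts were at least 8 times higher in 1 of the 12 libraries than in any other, 10 of them in tree 1A, and 4 of the 14 were called.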

How the data were processed

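The deposited counts table holds raw whole-number counts for 180879 transcripts in 72 libraries, made by the authors from strand-specific polyA libraries pooled in groups of 6. Which libraries shared a pool is not given in the labels, so a pool that coincides with a collection could not be told apart from its time. The submitters' processing notes name CASAVA 1.8, Bowtie2 2.2.3 and DESeq, with a transcript reference not given in the sources used here. Another table deposited by the authors holds a normalized signal for 41382 transcripts, 247 of them not in the counts table. It was used only in an alternative, as log2(value + 1) in limma 3.58.1.

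Libraries were grouped by the hour and the tree in their titles. The tree pairs the libraries, since the labels name the same 6 trees at each collection, and libraries of 1 tree also correlated best (a Spearman rho of at least 0.945, against at most 0.920 between trees). filterByExpr over all 72 libraries, with minimum counts of 10 and 15 in all, left 50101 transcripts with 99.0 to 99.7% of the counts of the 12 libraries, and no 2 of these were identical (0 pairs). Contrasts were tested by edgeR 4.0.16 (R 4.3.3), using its quasi-likelihood F test with trimmed-mean factors (0.933 to 1.09 at 2:00, 0.928 to 1.16 at 22:00), tree as a block and the libraries of the collections compared. Benjamini-Hochberg adjustment ran over all tested transcripts, tests were two-sided, and standard errors are the log2 change over the root of F. Per-tree changes used a prior count of 2. The scripts were tested on simulated data, and figures used matplotlib. No gene lists, set tests or sequences could be used.

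Transcripts were named by rule: past the threshold, the same direction in all 6 trees, and a mean of at least 10 CPM, the 10 largest rises and falls and the 3 most abundant of each. For the other tests the 2 largest each way, or the 2 of smallest p, were named, with 8 transcripts from an earlier analysis and psme_t004418. Members and lists were chosen with earlier results of these data known. Alternatives were RLE factors, DESeq2 1.42.0, other filters, fits without the block or with more collections, a stricter threshold and leaving out each tree. Robust dispersions were added after the data were seen.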

Additional observations from a re-analysis of the deposited data

Results flagged for a closer look

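The difference between the 2 pairs of 2:00 and 22:00 collections was flagged because it was tested directly and 1443 transcripts passed (edgeR quasi-likelihood F test, adjusted p under 0.05), 937 with a log2 change in the night step above that in the other pair and 506 with one below it. The day and the shift between the 14:00 and 18:00 collections of day 1 are confounded with the pair, and their part cannot be told apart.

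Among 31 sets of 6 per-tree changes examined, 2 had a tree far from the other 5. Chance at 1 in 20 would flag about 1.55. However, psme_t004418 was examined because it was known to be very high in 1 library. Its flag was thus fixed in advance, and the number flagged cannot be compared with chance. psme_t023380 rose by 3.13 on the log2 scale in tree 1A and by 1.87 to 2.24 in the other 5 trees. psme_t004418 changed by 12.8 in tree 1A, and it had 0 counts at both times in 4 of the other 5.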

How the results depend on the processing

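Of 441 values of the 26 transcripts named for the night step under the alternatives, 398 kept their direction and their side of the threshold, 43 no longer passed and 0 reversed. The 10 largest rises passed in all of them. The paired design carried most calls: with no replicate block 42 transcripts passed (28 rises, 14 falls), and 16 of the 26 named did not. Without the replicate block the evening step had 222 calls, the late night step 11, the other pair 1917, the difference between the pairs 202, the contrast across the night 2148, and 2:00 against its neighbours 0 (edgeR, with 718 at an unadjusted p under 0.05). Without a filter on low counts 4663 of 151646 transcripts passed (1953 rises, 2710 falls), and at an adjusted p under 0.01 674 did (256 rises, 418 falls). At 1 CPM or more in every library the contrast across the night had 6387 calls among fewer transcripts.

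The night step had 1892 calls with RLE factors, 1771 in DESeq2 (1489 of them shared), 1583 in limma on the authors' normalized values, and 2038 with robust dispersions, added after the data were seen. Fits over the last 8 collections or all 12 gave 1768 and 1420.

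Leaving out 1 tree in turn, which also lowers the number of trees, gave 1098 to 2013 calls in the night step (405 to 765 rises, 693 to 1248 falls), 3573 to 6937 in the evening step, 326 to 937 in the late night step, 2891 to 4600 in the other pair, 658 to 1163 in the difference between the pairs, 7357 to 10218 across the night, 19 to 50 for 2:00 against its neighbours, and 0 to 398 for the families. For psme_t004418 the log2 change was -1.89 without tree 1A, a reversal, and at most 12.80 with another tree left out, and did not pass in DESeq2 (4.51, adjusted p = 0.547). Outside tree 1A the transcript had 2 counts, in tree 2A at 22:00, so the sign of that reversal rests on 2 counts.

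With 6 trees and 1 night, changes of rare transcripts were not detectable unless large. Of the rises 30 (4.16%) and of the falls 39 (3.31%) had 0 counts at both times in at least 1 tree. Among all tested transcripts 9.85% did. Fitted changes of transcripts with 0 counts in a library depend on the prior count. The reference and any shared reads between near-identical transcripts were not tested.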

Other observations

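The 247 transcripts found only in the normalized table were listed above 0 in at least 1 of the 12 libraries each. On log2(value + 1) with limma 0 of them passed for 2:00 against 22:00 (adjusted p under 0.05), and 13 had an unadjusted p under 0.05. Of all 41382 transcripts in the same fit 1583 passed (3.83%), and 7872 had an unadjusted p under 0.05. Of the 247, 146 (59.1%) were higher at 2:00, against 51.4% of all transcripts in that table.

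Besides psme_t004418, the transcripts that were at least 8 times higher in 1 of the 12 libraries than in any other included psme_t002154, with 57.4 CPM in tree 1A at 2:00 and at most 3.14 CPM in the other 11 libraries, psme_t090563, with 260 CPM in tree 1A at 22:00 and at most 1.01 CPM in the others, and psme_t005171, with 63.7 CPM in tree 2B at 22:00 and at most 0.750 CPM in the others. None of these 3 passed in the night step.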
